A study of Mus musculus with 36 samples.

Results

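The Cyp2a and Cyp2b cluster of mouse chromosome 7 was examined through 9 genes: Cyp2a4, Cyp2a5, Cyp2a12, Cyp2a22, Cyp2b9, Cyp2b10, Cyp2b13, Cyp2b19 and Cyp2b23. For each gene the interval ran from 5 kb upstream of the annotated start to 1 kb past the end, and every CpG of the deposited count tables inside it was used. The 9 genes are among 21418 autosomal protein-coding genes of the annotation, and their intervals, which do not overlap, hold 1294 of the 18887127 autosomal CpGs. Whole-genome bisulfite sequencing, which reads a methylated cytosine as C and an unmethylated one as T, was applied to liver from 24 untreated mice in 8 groups of 3. B6 (C57BL/6N) and C3 (C3H/HeN) sires and dams were the parents. B6C3F1 sons and daughters came from B6 dams and C3 sires, and C3B6F1 sons and daughters from the reverse cross. All animals were killed at 20 weeks of age, so that the dams had littered and nursed while the F1 daughters were virgin. The sires and dams are therefore inbred and mated, the F1 animals hybrid and unmated, and parity and cross cannot be told apart between dams and F1 daughters. The labels do not tie the 3 animals of a group to particular families.

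CYP2A and CYP2B enzymes are heme-containing monooxygenases of the endoplasmic reticulum that hydroxylate steroids, drugs and dietary compounds. In mouse liver Cyp2a4, a steroid hydroxylase, and Cyp2b9 and Cyp2b13 are known as genes expressed at a higher level in females, and the sex-specific pattern of pituitary growth hormone is known to set many such differences. Cyp2a5 encodes coumarin hydroxylase, and Cyp2b10 is the classical target of phenobarbital and of the nuclear receptor CAR (Nr1i3). Cyp2b19 is known from skin keratinocytes. RNA was not measured in the data used here, so that the values below are DNA methylation only.

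Some members of the cluster are near-copies of each other, and the promoters of 2 such pairs are shown because single CpGs in them are described below. Each line gives the 250 bases before the annotated start on the coding strand, from the mm9 genome, with CpGs in capitals.
Cyp2a4 promoter, mm9 chr7:27091959-27092208, + strand: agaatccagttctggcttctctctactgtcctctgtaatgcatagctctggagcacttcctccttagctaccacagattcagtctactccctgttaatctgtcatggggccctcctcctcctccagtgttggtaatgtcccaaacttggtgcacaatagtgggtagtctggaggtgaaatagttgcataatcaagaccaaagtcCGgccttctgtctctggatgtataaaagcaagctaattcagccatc
Cyp2a5 promoter, mm9 chr7:27620074-27620323, + strand: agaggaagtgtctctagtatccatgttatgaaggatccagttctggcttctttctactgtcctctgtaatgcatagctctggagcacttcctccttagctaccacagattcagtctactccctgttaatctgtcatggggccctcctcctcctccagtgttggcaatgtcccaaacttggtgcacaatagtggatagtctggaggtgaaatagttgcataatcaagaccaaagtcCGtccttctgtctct
Cyp2b9 promoter, mm9 chr7:26958180-26958429, + strand: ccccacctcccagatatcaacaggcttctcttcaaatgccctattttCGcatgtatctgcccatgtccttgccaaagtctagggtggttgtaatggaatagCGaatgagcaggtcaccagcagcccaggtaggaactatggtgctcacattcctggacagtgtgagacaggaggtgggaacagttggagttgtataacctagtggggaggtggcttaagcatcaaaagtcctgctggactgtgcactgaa
Cyp2b13 promoter, mm9 chr7:26846264-26846513, + strand: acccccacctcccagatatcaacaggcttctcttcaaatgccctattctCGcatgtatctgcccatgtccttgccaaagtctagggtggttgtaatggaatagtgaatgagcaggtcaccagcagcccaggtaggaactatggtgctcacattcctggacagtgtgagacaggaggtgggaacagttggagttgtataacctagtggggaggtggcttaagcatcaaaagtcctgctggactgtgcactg
The Cyp2a4 and Cyp2a5 stretches were 97.7% identical over their aligned bases, with 5 mismatches, and those of Cyp2b9 and Cyp2b13 were 99.2% identical, with 2 mismatches. The Cyp2b10 promoter was 77.4% identical to that of Cyp2b9. Each of the Cyp2a4, Cyp2a5 and Cyp2b13 stretches held 1 CpG and the Cyp2b9 stretch 2.

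The regions of largest sex difference lay inside the genes. Below is a 300-base core of the region in Cyp2a4 beside the aligned stretch of Cyp2a5, followed by a core of the region in the first intron of Cyp2b9 beside the aligned stretch of Cyp2b13, again with CpGs in capitals.
Cyp2a4 region, mm9 chr7:27093462-27093761, + strand: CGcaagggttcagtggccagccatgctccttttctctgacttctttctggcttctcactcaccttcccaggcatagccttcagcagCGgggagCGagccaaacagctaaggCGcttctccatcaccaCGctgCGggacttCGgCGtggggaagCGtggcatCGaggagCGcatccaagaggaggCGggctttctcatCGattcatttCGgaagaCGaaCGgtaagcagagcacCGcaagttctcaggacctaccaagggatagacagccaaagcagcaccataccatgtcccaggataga
Cyp2a5 aligned stretch, mm9 chr7:27621624-27621923, + strand: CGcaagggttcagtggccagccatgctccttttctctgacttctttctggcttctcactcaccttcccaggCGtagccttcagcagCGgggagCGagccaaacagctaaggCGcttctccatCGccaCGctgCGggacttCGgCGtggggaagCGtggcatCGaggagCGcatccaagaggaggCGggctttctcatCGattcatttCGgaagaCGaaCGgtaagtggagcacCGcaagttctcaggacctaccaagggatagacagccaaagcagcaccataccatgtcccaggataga
Cyp2b9 region, mm9 chr7:26965361-26965660, + strand: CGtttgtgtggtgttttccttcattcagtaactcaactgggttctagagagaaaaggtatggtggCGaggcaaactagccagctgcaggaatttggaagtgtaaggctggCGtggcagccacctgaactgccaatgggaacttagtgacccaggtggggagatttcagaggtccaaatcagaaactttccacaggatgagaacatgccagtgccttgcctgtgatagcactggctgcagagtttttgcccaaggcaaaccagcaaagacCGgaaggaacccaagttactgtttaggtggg
Cyp2b13 aligned stretch, mm9 chr7:26855604-26855903, + strand: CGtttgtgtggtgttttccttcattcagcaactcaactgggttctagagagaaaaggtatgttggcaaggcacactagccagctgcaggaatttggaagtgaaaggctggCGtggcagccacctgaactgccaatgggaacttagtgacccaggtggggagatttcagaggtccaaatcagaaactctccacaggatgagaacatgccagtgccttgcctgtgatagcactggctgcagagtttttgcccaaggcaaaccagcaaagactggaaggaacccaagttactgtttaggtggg
The Cyp2a pair differed at 4 of the aligned bases and shared 17 CpGs. The Cyp2b pair differed at 7 aligned bases and shared 2 CpGs, while the Cyp2b9 stretch held 4.

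Depth over the autosomes was 19.4 to 32.8 reads per CpG in the 24 animals. Over the intervals of 8 members, relative to the autosomal mean of the same animal, it averaged 0.836 to 1.16 in either strain, and Cyp2a22, for which it did not, is described apart. Since reads of near-copies can be placed wrongly, stretches of 100 bases, converted as bisulfite converts the + strand, were searched in mm9 for exact matches. A stretch that differs from its copy at a single base thus counts as found once. Stretches converted as on the other strand, whose reads the counts include, were not searched. The shares found once therefore hold for the + strand only. The share found once was 60.1% in the Cyp2a5 interval, 64.3% in Cyp2a4, 72.7% in Cyp2b13, 82.8% in Cyp2b9 and 91.3% to 99.4% in the other 5. None of the tested stretches within the Cyp2b9 and Cyp2b13 promoters printed above was found once, against 76.9% of those within the Cyp2a4 and Cyp2a5 promoters. The authors mapped read pairs, whose second mate can lie outside such a stretch. The deposited list of single-nucleotide differences between local B6 and C3 assemblies had 0 entries in the member intervals and 8 over the whole cluster of 1145188 bp, against 1.14 per kb over chromosome 7. Liver is a mixture of cells, and a change in the share of a cell type and a change within cells cannot be told apart. Promoters of 7 hepatocyte genes had a median methylation of 26.7% in sires and 24.6% in dams, those of 4 of 5 Kupffer cell genes 83.2% and 82.2%, those of 5 endothelial genes 68.3% and 67.3%, those of 5 leukocyte genes 83.4% and 82.2%, those of 4 stellate cell genes 19.5% and 19.8%, and those of 4 cholangiocyte genes 40.1% and 42.5%. In F1 sons and daughters the hepatocyte promoters were at 27.3% and 29.5%, so that the daughters were above the dams and above the sons, while dams were below sires. The other lists were at 83.7% and 81.5% (Kupffer cell), 68.6% and 68.4% (endothelial), 84.0% and 83.6% (leukocyte), 19.9% and 20.2% (stellate cell), and 40.9% and 40.2% (cholangiocyte) in sons and daughters. The part of cell mixture in the results was not tested.

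Over whole intervals, methylation of Cyp2a4 and Cyp2b9 was much lower in dams than in sires, Cyp2a5 less so, and Cyp2b10 and Cyp2b13 by a few points. The comparison of the sexes among parents took the 6 sires, 3 of each strain, against the 6 dams. In Cyp2a4 the sires ranged from 68.1% to 72.9% with a median of 70.2%, and the dams from 43.6% to 55.5% with a median of 49.3%. In Cyp2b9 the sires ranged from 67.9% to 75.2% with a median of 71.6%, and the dams from 51.2% to 56.3% with a median of 54.4%. In neither gene did a dam reach the lowest sire.

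The Cyp2a4 means were 70.3% ± 2.1 (SD, n = 6) and 49.6% ± 5.3 (SD, n = 6), a difference of 20.7 points (limma adjusted p = 1.99e-10). Those of Cyp2b9 were 71.7% ± 2.5 and 54.0% ± 2.3 (SD, n = 6 each), a difference of 17.8 points (limma adjusted p = 1.36e-10). By p-value Cyp2b9 ranked 2 and Cyp2a4 3 of 21218 gene intervals tested. Cyp2a5 was at 57.5% ± 3.1 in sires and 49% ± 2.1 in dams, 8.48 points apart (limma adjusted p = 0.000319, n = 6 each), also with no overlap.
Cyp2b10 was 2.83 points higher in sires (76.8% against 74.0%, limma adjusted p = 0.000145) and Cyp2b13 2.61 points (79.9% against 77.2%, limma adjusted p = 0.0182), and in both genes sires and dams overlapped. The Cyp2b13 call was lost when B6 dam 1 or C3 dam 2 was left out, where the difference was 2.03 and 2.14 points. Cyp2a12 (2.33 points), Cyp2b19 (0.67 points) and Cyp2b23 (0.32 points) did not pass. In all, 5 of 8 tested members were called higher in sires and none lower, where 12.2% of all gene intervals were called higher. The median difference was 2.72 points over the 8 members and 0.51 points over all intervals.

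**Figure D1:**
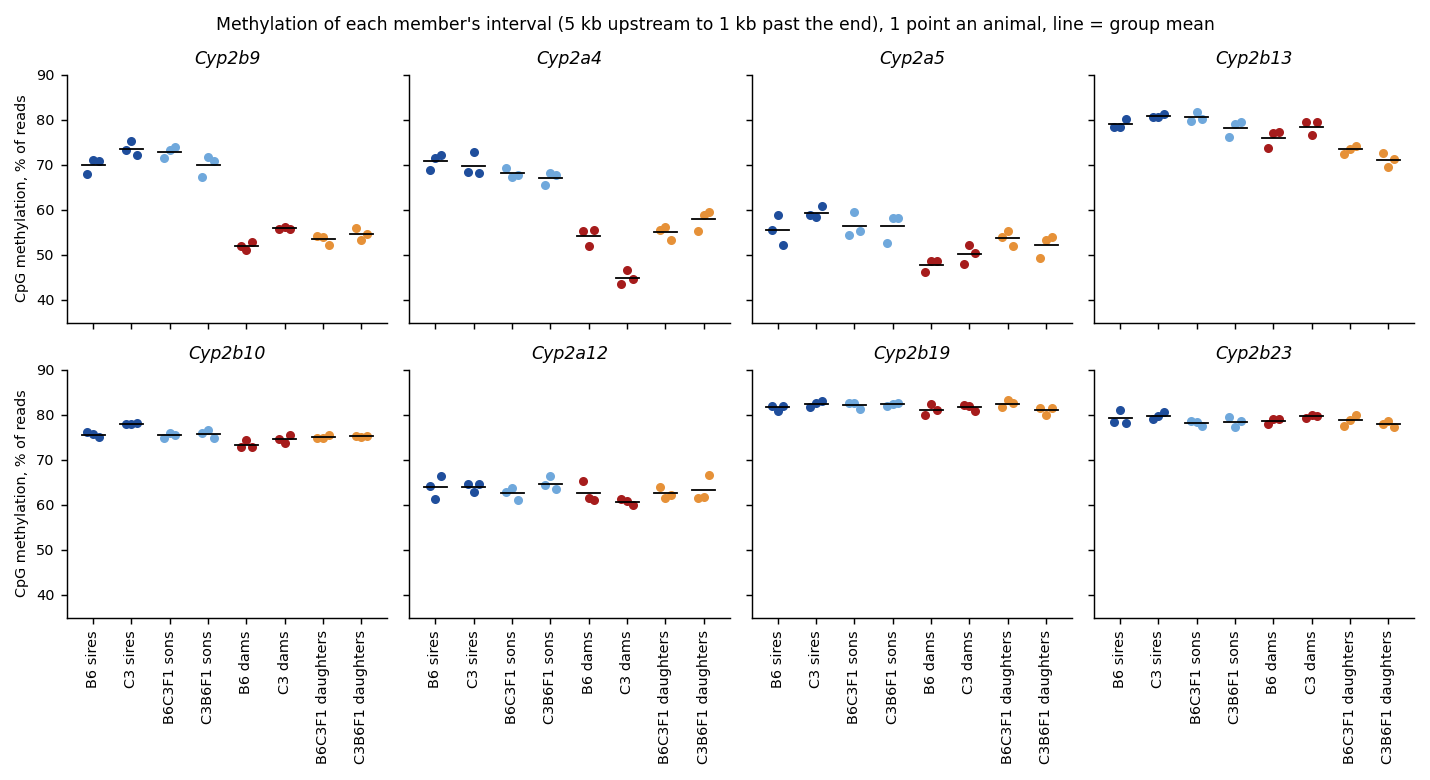
CpG methylation of 8 member intervals in percent of reads (y axis, 35 to 90%), by group (x axis), 1 point for each of 24 animals and a line for the group mean. Males (blue) lie above females (red and orange) without overlap in Cyp2b9 and Cyp2a4, while the Cyp2b19 and Cyp2b23 animals lie between 77.3% and 83.2% in all 8 groups.

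The sexes differed within each strain. Among B6 parents 4 of 8 members were called higher in sires (6.98% of all intervals), and among C3 parents also 4 (4.27%), in both cases Cyp2a4, Cyp2a5, Cyp2b9 and Cyp2b10. Neither Cyp2a5 call held on CpGs in unique sequence alone. In Cyp2a4 the 3 B6 sires were at 68.8%, 71.5% and 72.2% and the 3 B6 dams at 55.3%, 51.9% and 55.5%. The 3 C3 sires were at 68.3%, 72.9% and 68.1% and the 3 C3 dams at 43.6%, 46.7% and 44.5%. Every C3 dam was therefore below every B6 dam, while the sires of the strains overlapped. The sire-dam difference was 16.6 points in B6 and 24.8 in C3, and the test of the difference between strains did not pass (B6 minus C3 -8.22 points, limma adjusted p = 0.188). In Cyp2b9 the difference was 17.9 points in B6 and 17.6 in C3, and none of the 8 members passed that test. The B6 calls of Cyp2a5 and Cyp2b10 were each lost in 4 of 24 fits that left out 1 animal. For either gene these were the fits without B6 dam 1, B6 dam 3, B6 sire 1 or B6 sire 2. Only the 3 B6 sires and 3 B6 dams enter this comparison, so the fits without other animals tested it little. Over all 24 fits the difference was 6.08 to 9.41 points for Cyp2a5 and 1.96 to 2.75 for Cyp2b10.

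Within 1 kb of the start site the differences were also wide in Cyp2b13 and Cyp2b10, whose whole intervals differed by only a few points. Cyp2b9 promoter methylation was 42.0% ± 4.9 in sires and 18.3% ± 5.1 in dams (SD, n = 6 each), over 6 CpGs. Cyp2b13 was at 68.1% ± 5.5 and 44.4% ± 8.6 (SD, n = 6 each), over 5 CpGs. Sires of Cyp2b13 ranged from 61.5% to 77.2% (median 67.9%) and dams from 32.1% to 53.3% (median 46.1%). In the 250 bases before the start of either gene no tested stretch was found once. The check on CpGs in unique sequence was run on intervals only, so it does not cover promoter calls.
The Cyp2a4 promoter, with 29 CpGs, was at 89.3% ± 1.9 in sires and 68.9% ± 9.0 in dams (SD, n = 6 each). The B6 dams were at 80.8%, 72.3% and 76.6% and the C3 dams at 59.7%, 63.5% and 60.1%, so that the spread of the dams followed strain. The strains' sire-dam differences, B6 minus C3, were -16.3 points apart, which did not pass (limma adjusted p = 0.215). Cyp2a5 was at 78.1% ± 2.3 and 64% ± 2.2, and Cyp2b10 at 70.5% ± 3.5 and 58.4% ± 2.5 (SD, n = 6 each).
These 5 promoters of 8 tested were called higher in sires (limma adjusted p between 1.49e-10 and 0.000165), all without overlap, where 0.427% of all promoters were called in that direction. The median difference was 13.1 points over the members and 0.14 points over all promoters. Cyp2a12, Cyp2b19 and Cyp2b23 did not pass. The same 5 were called in B6 (0.139%) and in C3 (0.182%). Within a strain, leaving out single animals ended some calls. In B6 these were Cyp2b10 without dam 1, 2 or 3 or sire 2 or 3 (10.4 to 14.1 points), Cyp2b13 without dam 1 or sire 3 (20.0 to 30.6 points) and Cyp2b9 without dam 2 or sire 1 or 2 (15.9 to 21.6 points). In C3 they were Cyp2b10 without dam 1 or 2 or sire 1 or 2 (11 to 14.0 points) and Cyp2b13 without dam 2 or sire 1 or 3 (17.6 to 24.8 points), the ranges being those over all 24 fits.

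**Figure D2:**
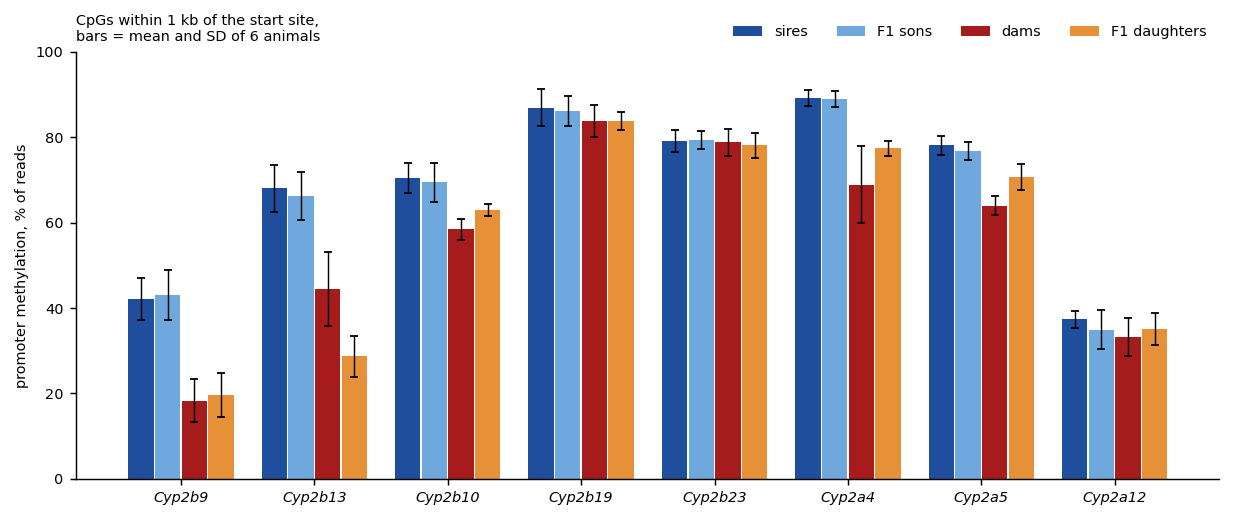
Promoter methylation in percent of reads (y axis) of 8 members (x axis) over CpGs within 1 kb of the start, as mean and SD of 6 animals for sires, F1 sons, dams and F1 daughters. Cyp2b13 falls from 68.1% in sires to 44.4% in dams and 28.7% in F1 daughters, and Cyp2a12 stays between 33.3% and 37.3%.

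Single CpGs of the 250 bases before the start varied among the members. The CpG at position -46 of Cyp2a4, counted from the annotated start, was at 66.7%, 64.5% and 80.0% in B6 sires and 64.5%, 60.5% and 64.1% in C3 sires. It was at 20.0%, 25.7% and 13.9% in B6 dams and 28.9%, 22.6% and 12.5% in C3 dams, on 15 to 39 reads an animal. It averaged 56.1% ± 12.4 in F1 sons and 16.4% ± 7.4 in F1 daughters (SD, n = 6 each). Sires and dams, and sons and daughters, did not overlap. The single CpG of the Cyp2a5 promoter, at position -15, averaged 24% in sires, 15.7% in dams, 19.9% in sons and 14.0% in daughters, and its ranges overlapped in both comparisons. A Wald test per CpG gave an unadjusted p of 1.03e-13 for Cyp2a4 and 0.199 for Cyp2a5 between sires and dams, and 1.33e-08 and 0.214 between sons and daughters. The CpG at position -201 of Cyp2b13 averaged 76.8% in sires, 40.3% in dams, 63.7% in sons and 18.3% in daughters, on 7 to 22 reads an animal. The Cyp2b9 CpG at position -203 averaged 29.3%, 11%, 29.2% and 6.04% in the same order, and that at position -149 21.1%, 16.3%, 30.1% and 13.3%. These Cyp2b13 and Cyp2b9 CpGs lie in the printed promoters, where no tested stretch was found once. The means of the Cyp2b10 CpGs were above the dams in sires and below the daughters in sons. The CpG at position -61 averaged 20.0% in sires, 8.82% in dams, 12.7% in sons and 14.4% in daughters, and that at position -35 averaged 26.4%, 15.4%, 16.5% and 19.4%. The Cyp2b19 CpG at position -76 averaged 83.2% in sires, 89.9% in dams, 84.6% in sons and 93.9% in daughters. None of these Cyp2b9, Cyp2b10 and Cyp2b19 CpGs passed the Wald threshold of 1e-05 in either comparison.

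In windows of 500 nt, called where sides were 20 or more points apart with an adjusted p under 0.05, 12 of 81 tested member windows were called between sires and dams, all higher in sires (0.0357% of all windows). The windows lay in Cyp2a4 (6), Cyp2b9 (4), Cyp2b13 (1) and Cyp2a5 (1). The largest difference was in Cyp2a4 at chr7:27093501-27094000, which covers part of an exon and 20 CpGs, with 89.1% ± 2.7 in sires and 39.4% ± 10.4 in dams (SD, n = 6 each; limma adjusted p = 9.79e-13). The next were chr7:26855501-26856000 in an intron of Cyp2b13, at 91.1% against 49.3%, and chr7:27097501-27098000 in Cyp2a4, which was 33.5 points higher in sires. Among B6 parents 10 windows were called (0.0382%), led by the Cyp2a4 window at 27093501 with 42.0 points, the Cyp2b13 window with 39.7 and the Cyp2a4 window at 27097501 with 30.7. Among C3 parents 14 were called (0.0542%), led by the same Cyp2a4 window with 57.6 points, the Cyp2b13 window with 43.9 and the Cyp2a4 window at 27093001 with 42.4. In C3 they also included 2 windows of Cyp2a5 and 1 of Cyp2b10, each past 20 points. No member window was called higher in dams.

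**Figure D3:**
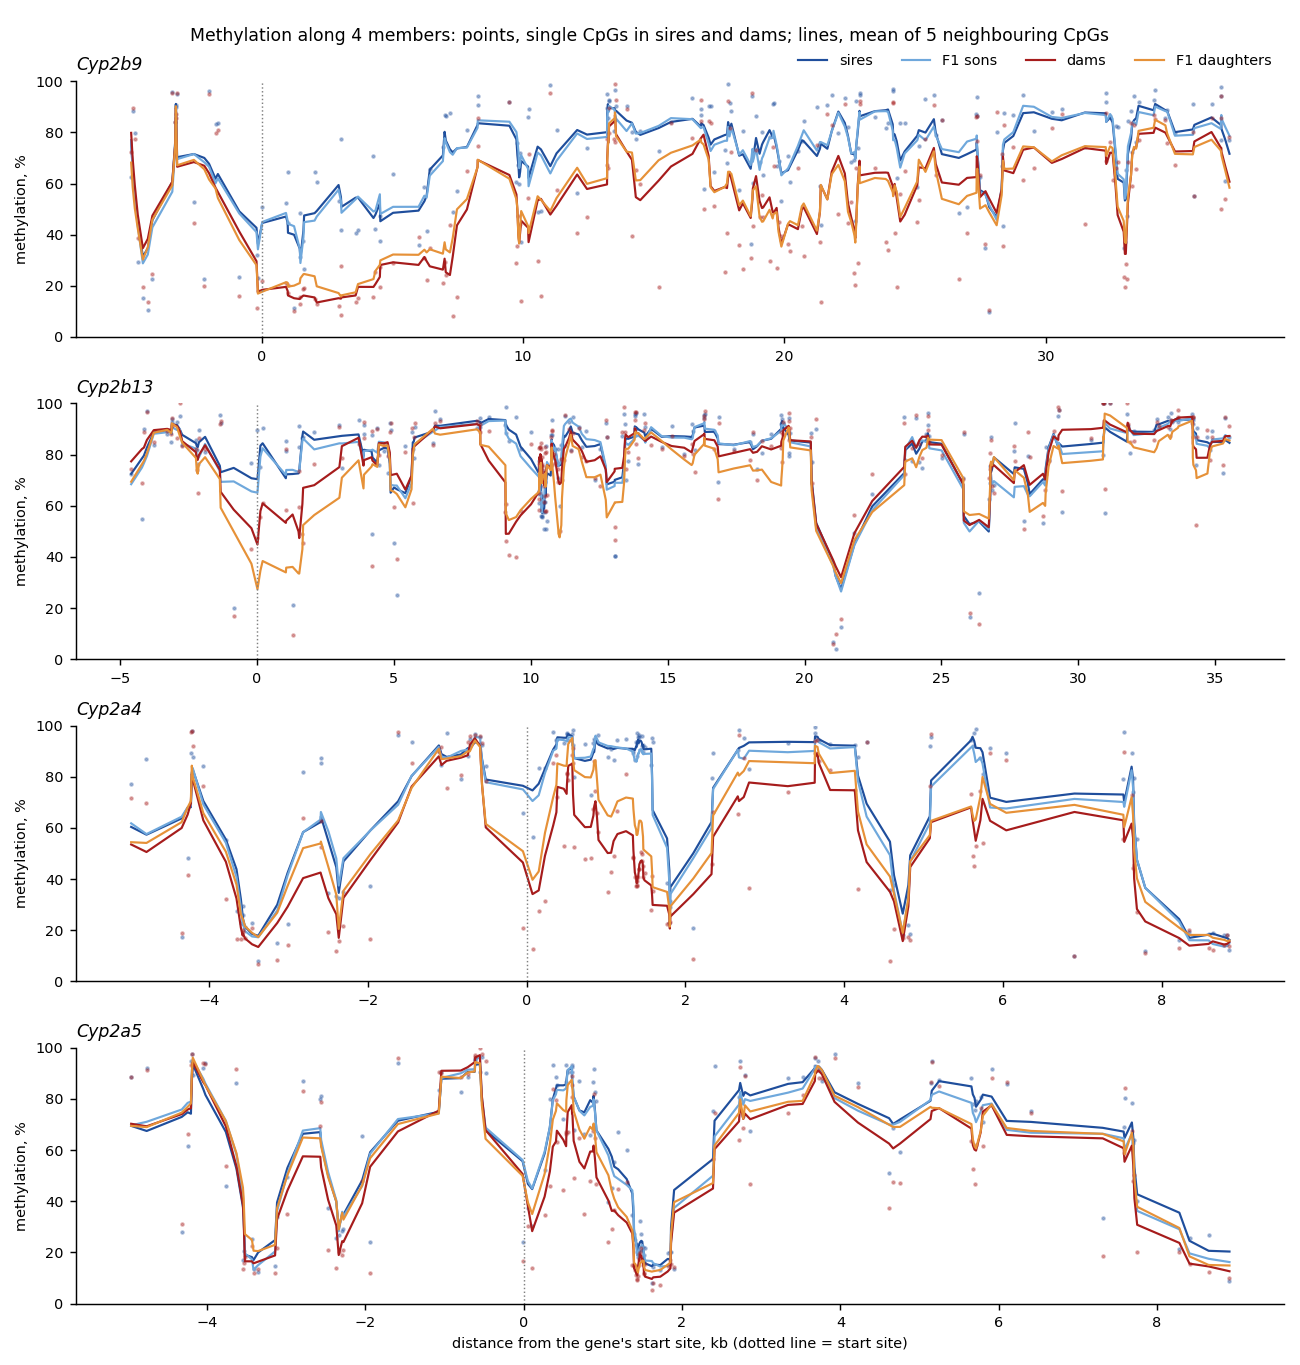
Methylation in percent (y axis) along Cyp2b9, Cyp2b13, Cyp2a4 and Cyp2a5 by distance from the start site in kb (x axis), with points for single CpGs in sires (blue) and dams (red) and lines for the mean of 5 neighbouring CpGs in sires, F1 sons, dams and F1 daughters. Females lie below males over nearly the whole Cyp2b9 gene, while its 5 kb upstream average 62.1% in sires and in dams. In Cyp2a4 the gap is widest between the start and 2 kb.

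The position of the difference varied among the members. The 5 kb upstream of Cyp2b9 were at 62.1% ± 1.2 in sires and 62.1% ± 2.3 in dams, while its gene body was at 72.8% ± 2.8 and 53.0% ± 2.5 (SD, n = 6 each). In Cyp2a4 the upstream 5 kb were at 59.6% ± 3.0 and 50.5% ± 2.9 and the gene body at 79.2% ± 1.8 and 52.3% ± 6.8 (SD, n = 6 each). In Cyp2b10 the order was the reverse, with 62.2% ± 2.6 and 55.1% ± 2.7 upstream and 78.8% ± 1.6 and 76.5% ± 1.1 in the body. Upstream and body were compared as values, with no test between them.

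Of the CpGs tested, 98 member CpGs passed an unadjusted Wald p below 1e-05 between sires and dams, all higher in sires, where 0.0254% of all autosomal CpGs were higher in sires at that threshold. They made up 28.6% of the tested CpGs of Cyp2a4 (38 of 133), 22.8% in Cyp2b9 (44 of 193), 4.00% in Cyp2b13 (9 of 225), 2.22% in Cyp2a5 (3 of 135) and 1.44% in Cyp2b10 (4 of 277). Cyp2a12, Cyp2b19, Cyp2b23 and Cyp2a22 had none. Runs of at least 5 CpGs, of which 75% or more passed and whose pooled levels differed by at least 20 points, were taken as differentially methylated regions (DMRs). Of 439 DMRs between sires and dams over the autosomes 139 were higher in sires, and 4 of the 139 lay in members, while none of the 300 lower in sires did.

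The Cyp2b9 DMR of 6 CpGs at chr7:26965361-26965900, 6931 to 7470 bases past the start in intron 1, had the widest gap of the 4. The B6 sires were at 71.6%, 78.2% and 77.2% and the B6 dams at 20.2%, 26.9% and 25.3%. The C3 sires were at 80.3%, 77.0% and 77.3% and the C3 dams at 32.6%, 25.5% and 20.3%. The pooled reads differed by 51.5 points, and no dam exceeded 32.6%. Of the stretches of 100 bases tested in this DMR 29.1% were found once in mm9.
The Cyp2a4 DMR of 25 CpGs at chr7:27093115-27093798 spans exon 3 with parts of introns 2 and 3, and differed by 45.8 points. Its B6 sires were at 89.5%, 93.7% and 94.0% and its B6 dams at 54.3%, 48% and 59.9%. Its C3 sires were at 90.1%, 92.9% and 91.6% and its C3 dams at 38.3%, 37.2% and 32.5%. The C3 dams were again all below the B6 dams, and 91.3% of the tested stretches were found once.
The Cyp2b13 DMR of 5 CpGs at chr7:26855588-26855981, in intron 1, was at 91.3% ± 2.0 in B6 sires and 51.5% ± 4.8 in B6 dams, and at 90.9% ± 2.2 in C3 sires and 47.0% ± 4.2 in C3 dams (SD, n = 3 each). Of its stretches 42.5% were found once. The last, of 12 CpGs at chr7:26960450-26963454 in intron 1 of Cyp2b9, was at 49.8% ± 5.9 in B6 sires, 19.8% ± 2.3 in B6 dams, 58.2% ± 3.3 in C3 sires and 16.6% ± 1.4 in C3 dams (SD, n = 3 each).

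**Figure D4:**
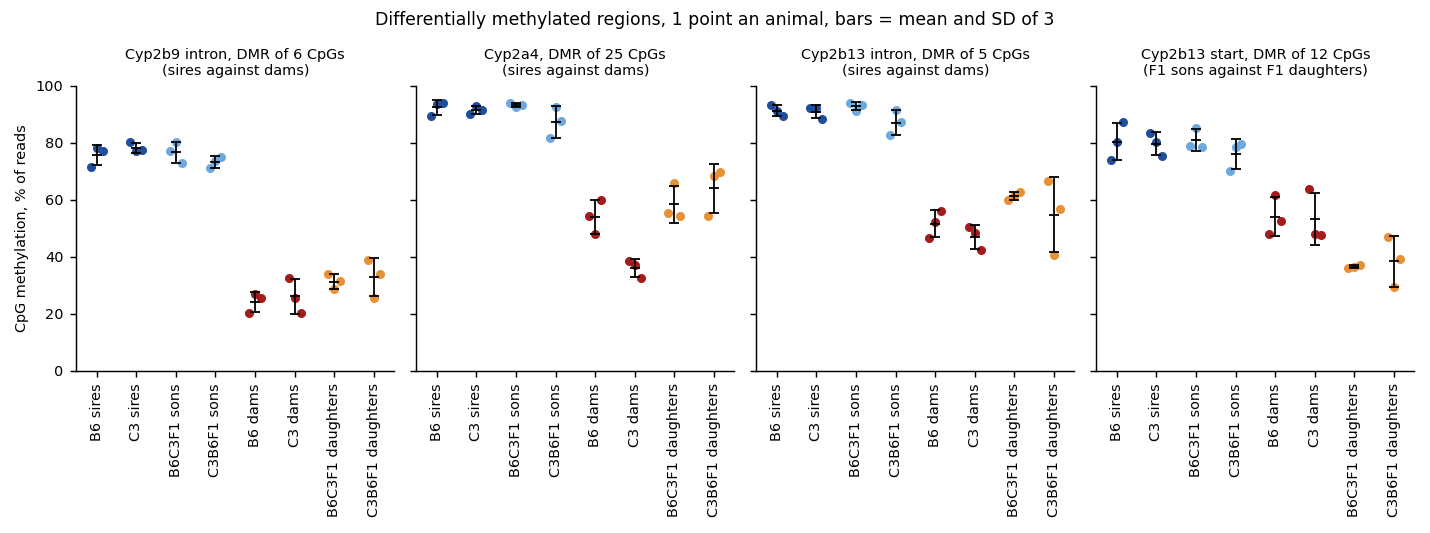
CpG methylation in percent of reads (y axis) of 4 DMRs by group (x axis), 1 point for each animal, with the mean and SD of 3. The Cyp2b9 DMR of 6 CpGs lies at 71.0% or more in all males and 38.7% or less in all females, and in the Cyp2b13 DMR at the start both F1 daughter groups have lower means than both dam groups.

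Among the F1 animals 3 of 8 intervals were called higher in sons than in daughters (0.207% of all intervals), and the mean was higher in sons in 7 of 8. Cyp2b9 sons ranged from 67.3% to 73.9% (median 71.6%) and daughters from 52.2% to 55.9% (median 54.1%), a difference of 17.4 points that had the smallest p of 21218 intervals (limma adjusted p = 4.26e-10). Cyp2a4 was at 67.6% ± 1.2 in sons and 56.4% ± 2.3 in daughters (limma adjusted p = 3.64e-06, n = 6 each), and Cyp2b13 at 79.3% ± 1.8 and 72.2% ± 1.7 (limma adjusted p = 1.14e-05, n = 6 each). None of these overlapped. Cyp2a5 differed by 3.37 points (56.4% ± 2.7 against 53.0% ± 2.1) and did not pass (limma adjusted p = 0.439, n = 6 each), nor did Cyp2b10 with 0.48 points. The median difference was 2.06 points over the 8 members and 0.30 over all intervals.
Of the promoters 3 were called higher in sons (0.0768%). Cyp2b13 showed the largest difference, with 60.1% to 73.8% in sons and 21.6% to 35.0% in daughters and means of 66.3% and 28.7%. This promoter has 5 CpGs, and no tested stretch before the start of Cyp2b13 or Cyp2b9 was found once. Cyp2b9 was at 43.0% and 19.5%, and Cyp2a4 at 88.9% and 77.4%. The 6.12 points of Cyp2a5 did not pass (limma adjusted p = 0.0916), and the 6.46 points of Cyp2b10 did not either (limma adjusted p = 0.187). Leaving out C3B6F1 son 1 brought both past the threshold (limma adjusted p = 0.0140 for Cyp2b10), and leaving out C3B6F1 daughter 3 brought Cyp2a5 past it (limma adjusted p = 0.0333).

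Of the windows 6 were called higher in sons (0.00357%), 2 each in Cyp2a4, Cyp2b9 and Cyp2b13, led by the Cyp2b13 window at 26855501 with 31.9 points, the Cyp2b9 window at 26968001 with 30.9 and the Cyp2a4 window at 27093501 with 29.6. Of the CpGs 80 passed the Wald threshold, all higher in sons (0.00276%): 38 in Cyp2b9, 21 in Cyp2a4 and 21 in Cyp2b13. Of the 19 autosomal DMRs higher in sons 4 lay in members, and none of the 173 higher in daughters did. The DMR at the start of Cyp2b13, chr7:26846313-26848607, covered 12 CpGs from 201 bases upstream, and includes exon 1. Its B6C3F1 sons were at 78.8%, 85.3% and 78.4% and the B6C3F1 daughters at 35.9%, 36.3% and 37.1%. Its C3B6F1 sons were at 70.2%, 78.6% and 79.5% and the C3B6F1 daughters at 46.9%, 29.2% and 39.0%. Dams of both strains lay between 47.6% and 63.9%, above all 6 daughters. The other 3 were in intron 1 of Cyp2b9 (38.0 and 34.3 points) and at exon 3 of Cyp2a4 (37.2 points). Of the 100-base stretches 73.5% were found once in the DMR at the start of Cyp2b13, 40.0% in the Cyp2b9 DMR at 26968175 and 100% in the Cyp2a4 DMR. With C3B6F1 son 2 left out 2 DMRs were found in members.

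Females of the 2 generations differed in opposite directions in 2 members. Cyp2b13 was higher in dams than in F1 daughters, by 5.02 points over the interval (77.2% against 72.2%, limma adjusted p = 0.00603). It was 1 of 8 members called higher in dams, where 0.099% of all intervals were. Its promoter was at 32.1% to 53.3% in dams and 21.6% to 35.0% in daughters, a difference of 15.7 points (limma adjusted p = 0.0274) in a direction called for 0.0384% of all promoters. That promoter call was lost in 8 of 24 fits that left out 1 animal. The animals were B6 dams 2 and 3, C3 dams 1 and 3, B6C3F1 daughters 1 and 2 and C3B6F1 daughters 2 and 3. Only dams and daughters enter this comparison, so the fits without a male tested it little. Over all 24 fits the difference was 13.0 to 18.3 points, with limma adjusted p-values up to 0.121. The call was also lost with thinned reads, with a robust variance and with no filter on low counts.
Cyp2a4 was lower in dams, with dams minus daughters at -6.85 points (49.6% against 56.4%, limma adjusted p = 0.0101), the 1 of 8 members called in the direction taken by 0.895% of all intervals. Dams of C3, at 43.6% to 46.7%, were below all 6 daughters, which lay between 53.3% and 59.5%, and the B6 dams overlapped the daughters. Cyp2b9 had a difference of -0.03 points, with the dams at 54.0% ± 2.3 and the daughters at 54.0% ± 1.3. Cyp2a5 had a difference of -4.0 points and did not pass (limma adjusted p = 0.157). No DMR of the members was found between dams and daughters, and the single CpG past the Wald threshold, in Cyp2b13, was higher in dams (0.000236% of all CpGs). No member CpG passed when B6 dam 2, C3 dam 1, B6C3F1 daughter 1, 2 or 3, or C3B6F1 daughter 2 was left out, or with smoothed counts.
Males of the 2 generations showed no called member in intervals, promoters or windows under limma, with 3 of 8 intervals and 0 of 8 promoters at an unadjusted p below 0.05. The largest interval difference was 2.68 points, in Cyp2a4.

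The test of whether the sex difference itself changed between parents and offspring used the same 24 animals. In Cyp2a4 it was 20.7 points between sires and dams and 11.2 between sons and daughters, 9.53 points larger in the parents (limma adjusted p = 0.0153). It was the 1 member interval called, where 0.179% of all intervals had a larger difference in the parents. For Cyp2b13 the parents' minus the F1 difference was -4.51 points and did not pass (limma adjusted p = 0.0708), and for Cyp2b9 the 2 differences were within 0.37 points. With only CpGs of at least 5 reads Cyp2b10 and Cyp2b13 passed too, 3 intervals in all. No promoter or window of a member passed, and 1 window did with a pseudocount of 5 or with at least 100 reads. The C3 dams, at 43.6% to 46.7% in Cyp2a4, were below all daughters, and the B6 dams overlapped them.

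Between the strains of the parents, 4 of 8 member intervals and 2 of 8 promoters were called. B6 exceeded C3 in Cyp2a4 by 5.19 points (62.5% against 57.3%), the 1 of 8 members called in a direction that held for 4.17% of all intervals. B6 was lower than C3 in Cyp2b9, Cyp2b13 and Cyp2b10, with B6 minus C3 at -3.83, -2.11 and -1.80 points, 3 of 8 members where 24% of all intervals were called lower. The median difference was -1.30 points over the 8 members and -0.96 over all intervals, so that B6 was lower across the genome too. The Cyp2b13 call was lost in 7 of 24 fits that left out 1 animal: B6 sires 1 and 2, B6 dam 1, C3 sires 2 and 3, and C3 dams 1 and 3. Only the parents enter this comparison, so the fits without an F1 animal tested it little. Among the promoters Cyp2a4 was 7.34 points higher in B6 (5.63% of all promoters) and Cyp2b19 lower, at -4.91 points (8.64%). The Cyp2a4 call was lost without B6 dam 1, B6 sire 3 or C3 sire 3. The Cyp2b19 call was lost without B6 dam 1 or 3, B6 sire 2 or 3, C3 dam 2 or 3, or C3 sire 2 or 3. No member window was called between the strains, and no member CpG passed the Wald threshold. B6C3F1 and C3B6F1 animals did not differ in any member interval, promoter or window by limma, with 1 interval and 1 promoter at an unadjusted p below 0.05.

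Near-copies held the same CpGs at different levels. The Cyp2a4 DMR aligned to chr7:27621261-27621960 of Cyp2a5 with 97.4% identity, and 23 CpGs were listed in both. Over these CpGs Cyp2a4 was at 91.6% in sires, 45.8% in dams, 89.4% in sons and 59.6% in daughters. The matched CpGs of Cyp2a5 were at 29.1%, 20.0%, 28.5% and 21.6%. Both copies were higher in males, and each Cyp2a5 level was below all 4 Cyp2a4 levels. Of 100-base stretches tested in the 300-base cores printed above, 100% were found once for either gene of this pair. This holds for exact matches on the + strand. Most of the 4 differing bases of the cores are A against G, which conversion of the other strand makes alike.
The Cyp2b9 DMR of 6 CpGs and its Cyp2b13 counterpart were 98.5% identical, with 4 CpGs listed in both. Cyp2b9 was at 71.2% in sires and 19.8% in dams, and Cyp2b13 at 86.8% and 46.2%. In the printed cores of this pair 51.6% of the stretches were found once for either gene. At the start of Cyp2b13 the 10 CpGs shared with Cyp2b9 were at 78.9% and 53.7% in sires and dams, against 40.5% and 16.2% in Cyp2b9. Other regions differed less in the copy. At the 6 CpGs shared by the Cyp2b9 DMR of 12 CpGs and Cyp2b13, Cyp2b9 was at 54.4% in sires and 16.5% in dams, and Cyp2b13 at 88.4% and 85.0%. At the 3 CpGs shared by the Cyp2b9 DMR at 26968175, which was found between sons and daughters, Cyp2b9 was at 70.9% in sons and 37.3% in daughters, and Cyp2b13 at 87.6% and 71.3%. In sires and dams Cyp2b9 was at 65.6% and 34.6% there, and Cyp2b13 at 88.3% and 80.1%. These are pooled reads, set side by side with no test between copies.
In a further fit, chosen after seeing the data, only CpGs in unique sequence were kept, judged on stretches of the + strand alone. Cyp2a4 (60 of 134 CpGs) was then at 67.3% in sires and 42.2% in dams, and Cyp2b9 (118 of 193) at 73.9% and 57.6%. Cyp2a5 (51 of 135) was at 45.7% and 38.2%. All 5 members called between sires and dams, and all 3 called between sons and daughters, passed on these CpGs as well. The calls of Cyp2a5 within B6 (limma adjusted p = 0.186) and within C3 (limma adjusted p = 0.0911), and of Cyp2b13 between the strains, did not. Relative depth over Cyp2b9 was 1.12 times as high in sires as in dams, and 1.09 times over Cyp2a4.

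Cyp2a22 stood apart by depth. Its interval had 28 CpGs in the tables of 87 CG dinucleotides in mm9, against 99.0% to 100% listed in the other members. The 6 B6 parents had 8 to 14 reads in all over these CpGs, the 6 C3 parents 556 to 940 and the 12 F1 animals 288 to 497. Depth relative to the animal's autosomal mean was 0.0128 in B6, 1.05 in C3 and 0.538 in F1 animals, and the groups did not overlap. The B6 value was thus 0.0121 of the C3 value, and only 4 of 21312 gene intervals (0.0188%) had a ratio below 0.2. The low B6 depth lay in 7 runs within chr7:27639279-27746321, a stretch of 107043 bp that holds no other protein-coding gene. Of the 1058 CG dinucleotides of mm9 there, 522 were listed. The paper kept only CpGs whose context the reads of both strains bore out. Over the listed CpGs B6 was at 0.0863, C3 at 1.05 and F1 animals at 0.562. In mm9 69.3% of the 100-base stretches of this region were found once, and the share was 91.3% within the Cyp2a22 interval. The strain difference in depth was not tested beyond these values, and its source was not examined. With so few B6 reads Cyp2a22 was in no limma fit that required 30 reads, and its CpGs were in no Wald test between the strains. Among the limma alternatives it could enter only the one with no filter on low counts. In the Wald tests that pooled the strains or used F1 animals, none of its 28 CpGs passed. Where strains were pooled the parental reads came almost wholly from C3, with 0.363 reads per CpG in B6 and 27.8 in C3 parents. Its methylation ranged from 75.5% to 82.2% in C3 parents and from 77.3% to 83.5% in F1 animals, and the B6 levels are not given.

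**Figure D5:**
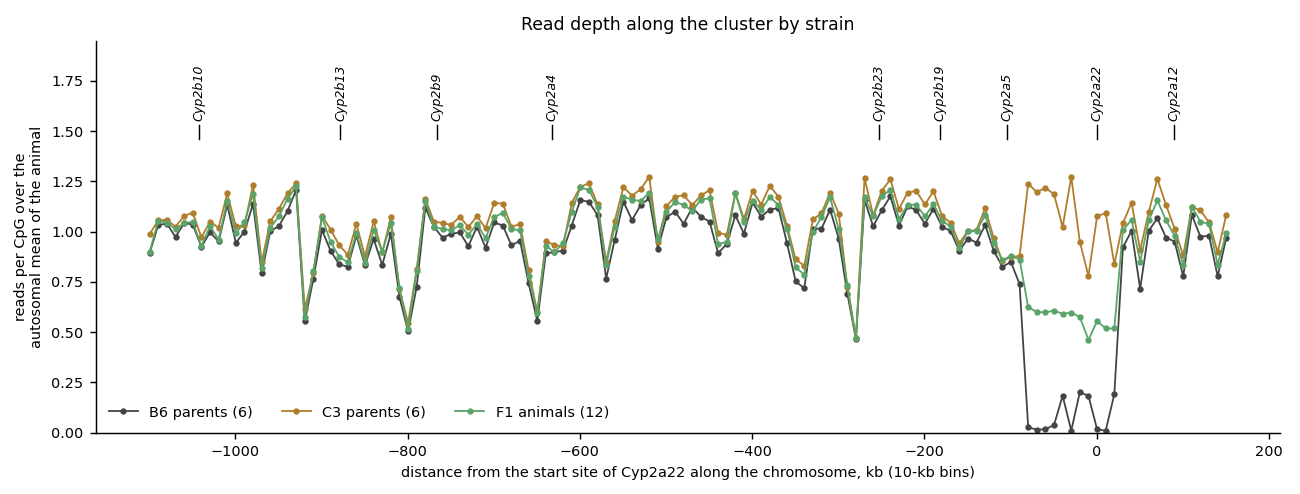
Reads per CpG over the autosomal mean of the animal (y axis) in bins of 10 kb along the cluster, by distance from the start of Cyp2a22 in kb (x axis), as means of 6 B6 parents, 6 C3 parents and 12 F1 animals. Over the stretch around Cyp2a22 B6 falls to an average of 0.0863 and the F1 animals to 0.562 while C3 stays at 1.05. Elsewhere the 3 lines lie closer together, with B6 below C3, as at chr7:27770000-27779999 (0.716 against 0.909).

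Other genes were counted from 2 lists, and those named were chosen after their values were seen. Of the 4 other P450 genes next to the cluster (Cyp2f2, Cyp2g1, Cyp2s1 and Cyp2t4) 1 interval was called lower in sires, Cyp2f2 at -3.65 points (1.39% of all intervals), and 1 promoter, Cyp2g1 at -7.07 points (0.312%). Of 22 tested regulators and partners of P450 genes, 3 intervals were higher in sires, a share near the 12.2% of all intervals: Prlr, the prolactin receptor, by 7.10 points, Nr1i3 by 3.21 and Cux2, a female-biased repressor, by 1.42. Between sons and daughters Prlr was higher in sons by 2.47 points (0.207% of all intervals were higher in sons). Ghr, the growth hormone receptor, was lower in sons at -2.19 points (0.377% of all intervals were lower in sons). Both were also called lower in dams than in daughters (0.895% of all intervals). Of the 22, 9 were called lower in B6 than in C3 parents (24% of all intervals). No promoter of these 22 was called in any of the 10 comparisons.
Across the 24 animals, the intervals of other genes that moved most like Cyp2a4 were A1bg (Pearson's r = 0.89), Hamp2 (0.88), BC089597 (0.83), Serpina6 (0.82) and Cyp2c69 (0.78), among 177 intervals with an SD of at least 5 points. Within the cluster Cyp2a4 and Cyp2b9 had r = 0.86, the highest of the member pairs. With the other members Cyp2a4 ranged from -0.079 (Cyp2b23) to 0.73 (Cyp2a5). The animals share sex and strain, so that these values describe the groups.

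Sequence motifs were counted in the 13 member windows called between sires and dams or sons and daughters, on both strands. TTCNNNGAA, the core bound by STAT5, the signal transducer of growth hormone, was in 3 of 13 (23.1%, against 15.8% of all windows), CANNTG (E-box) in 11 (84.6% against 93.8%), AGGTCA (a nuclear receptor element) in 2 (15.4% against 27.5%) and TGTTTAC (FOXA) in none (6.99% of all windows). Among all 83 member windows the shares were 19.3%, 88.0%, 26.5% and 2.41% in the same order. Of promoters of 300 bases, 250 before and 50 after the start, AGGTCA was in 5 of 9 members, namely Cyp2a4, Cyp2b9, Cyp2b13, Cyp2b19 and Cyp2b23 (14.5% of all promoters). In the 4 Cyp2b genes it lay in the same stretch of related promoters, so that these are not separate occurrences. CANNTG was in 5 of 9 (69.3% of all promoters), and TTCNNNGAA (7.89%) and TGTTTAC (3.08%) were in none.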

How the data were processed

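Liver DNA of 24 mice in 8 groups of 3 was sequenced after bisulfite conversion. The authors filtered the reads, mapped read pairs to mm9 with Bismark 0.7.8 and Bowtie 0.12.8, removed duplicates, cut the overlap of mates and pooled each animal's libraries. The submitters' processing notes also name CASAVA 1.8.2 and Picard 1.110. The deposited files hold counts of methylated and unmethylated reads per CpG, both strands together, and a list of single-nucleotide differences between the strains. FOXA1 samples and chromosome X were not analysed here.

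Counts were summed per animal over gene intervals (at least 5 CpGs), promoters (within 1000 bp of the start, at least 3 CpGs) and 500-bp windows (at least 5 CpGs), with at least 30 reads in every animal. The log2 ratio of methylated to unmethylated reads, each plus 1, was fitted with limma 3.58.1 in R 4.3.3 over 8 group means, with a trended variance. P-values were adjusted by Benjamini-Hochberg over all features of a kind, and 0.05 was the threshold. Comparisons that share animals are not independent. Single CpGs had a beta-binomial Wald test at an unadjusted 1e-05. The scripts were tested on simulated data. Points are differences in percent methylation.

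All 9 members were named. Of the windows, the 3 with the largest difference per direction were named where sides did not overlap. Other genes came from 2 lists and a likeness rule. The members and lists were chosen with earlier results of these data known. Total counts per animal were 365740739 to 619888157, or 19.4 to 32.8 reads per CpG. Animals of a group are separate samples by label. The labels do not tie same-numbered animals together. Deviations of same-numbered animals had a mean correlation of 0.043 over 84 pairs, and -0.021 over 168 others. Deviations within a group offset each other, so the second mean follows from the first. Whether same-numbered animals belong together is therefore not settled by these values. Alternatives were another pseudocount, scale, variance, depth or filter, the gene body, a replicate block and leaving out each animal.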

Additional observations from a re-analysis of the deposited data

Results flagged for a closer look

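The sire-dam difference of the Cyp2a4 interval exceeded the son-daughter difference by 9.53 points, and the test of that difference itself passed (limma adjusted p = 0.0153). It was 20.7 points among parents and 11.2 among F1 animals, and every group of females lay below every group of males. The C3 dams, at 43.6% to 46.7%, were below all F1 daughters, and the B6 dams overlapped them. The F1 daughters were virgin and hybrid and the dams had littered and were inbred, so that parity and cross cannot be told apart.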

How the results depend on the processing

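Values under alternatives were taken only for single-member results with an unadjusted limma p below 0.05 in the main fit. Of these 2403 values, 2319 kept their direction and their side of the threshold, 70 lost a call, 14 gained one and 0 reversed. That choice left little room for a reversal, and many values came from leaving out an animal outside the comparison. Of 1075 counts of called member intervals, promoters and windows, of DMRs and of members with unequal strain depth, 56 moved. A count moved if it changed by over 1.5 times or went to or from none, and the cause was not tested. Thinned reads gave 2 promoters between B6 sires and dams in place of 5, 3 between C3 sires and dams in place of 5, 1 between the strains in place of 2, and 0 between dams and F1 daughters in place of 1. That last count was also 0 with a robust variance or no filter and 2 on an arcsine scale. The gene body gave 2 intervals between B6 sires and dams in place of 4, and CpGs with 5 reads gave 3 intervals whose sex difference changed between generations in place of 1. Windows with at least 100 reads numbered 6 in place of 12 between sires and dams, 4 in place of 10 in B6, 8 in place of 14 in C3 and 3 in place of 6 between sons and daughters, and 1 in place of 0 for the change between generations, which was also 1 with a pseudocount of 5. A window difference of at least 10 points gave 21 between sires and dams, 18 between sons and daughters, 4 between dams and daughters and 3 between the strains. The share of all windows called at 10 points is not given, so these counts cannot be read against it. With 50% of CpGs past the threshold, DMRs numbered 9 between sires and dams and 8 between sons and daughters, in place of 4 each. They numbered 2 between sires and dams with at least 10 reads in every animal, and 7 between sons and daughters at 1e-04.

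Leaving out 1 animal gave 2 to 4 intervals between B6 sires and dams, 3 to 5 promoters in B6, 3 to 5 in C3, 3 to 5 between sons and daughters, 0 to 2 between dams and daughters and 0 to 3 between the strains. It gave 0 to 1 windows for the change between generations and 2 to 5 DMRs between sons and daughters. With the replicate block, 73 of 75 single-member results kept their call, 0 lost it and 2 gained it, for Cyp2a5. Restricting to CpGs in unique sequence, chosen after seeing the data, ended the calls of the Cyp2a5 interval within B6 (adjusted p = 0.186) and C3 (adjusted p = 0.0911) and of Cyp2b13 between the strains.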
